A study of Mus musculus with 6 samples.

Results

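Sgsm1, its paralogs Sgsm2 and Sgsm3, and 5 genes of the Rap family (Rap1a, Rap1b, Rap2a, Rap2b and Rap2c) were examined in frontal cortex of GFAP-IL6 and wild-type (WT) mice. The 8 genes were picked by symbol from a count table of 33000 genes. They occupied 9 rows, because the symbol Sgsm3 occurred in a pair of rows. Of these rows, 8 were among the 15341 genes that passed the filter on low counts. Sgsm1 was chosen because its count was lower in GFAP-IL6 mice, so its values are given as a description and without a test. The paralogs and Rap genes were added by family, not by their counts, although earlier results of these data were known when they were chosen. The question asked of them was whether any of them was higher where Sgsm1 was lower.

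TruSeq mRNA libraries were made from 6 mice of the C57BL/6 strain, all 3 months old, with 3 libraries for each group. GFAP-IL6 mice were homozygous for a transgene that places the cytokine IL6 under the promoter of the astrocyte gene Gfap, and WT mice carried no transgene. The promoter confines the transgene to cells that use it, mainly astrocytes, while the libraries hold RNA of the whole dissected tissue. A lower level can therefore mean fewer cells of a type or less RNA per cell, which cannot be told apart here.

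SGSM proteins carry a RUN domain, which binds small G proteins of the Rap and Rab families, and a TBC domain, which speeds the hydrolysis of GTP by Rab proteins and so switches them off. Rap proteins are relatives of Ras. In neurons and glia they are known for control of cell adhesion, integrins and synaptic strength, while Rab proteins direct vesicle traffic. Sgsm1 is known mainly from neural tissue, and Sgsm3 is known as a more widely expressed member that also binds a gap junction protein. The Rap proteins are binding partners of the SGSM proteins and not their paralogs.

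Sgsm1 (ENSMUSG00000042216.11) lies on the minus strand of chromosome 5 between positions 113243220 and 113310786 of GRCm38. RefSeq places transcript starts of Sgsm1 at separate sites, and the deposited count adds up reads from all of them. The 300 bases around both starts are shown because Sgsm1 carries the change described here, and because the count does not say from which start its reads came. Each window runs from 250 bases before to 50 bases after the start, read 5′ to 3′ on the minus strand of GRCm38.p6, and capitals mark CCAAT boxes (CCAAT, or ATTGG on the other strand). The distal window is chr5:113310737-113311036 and the internal window is chr5:113280552-113280851.
Sgsm1 distal start: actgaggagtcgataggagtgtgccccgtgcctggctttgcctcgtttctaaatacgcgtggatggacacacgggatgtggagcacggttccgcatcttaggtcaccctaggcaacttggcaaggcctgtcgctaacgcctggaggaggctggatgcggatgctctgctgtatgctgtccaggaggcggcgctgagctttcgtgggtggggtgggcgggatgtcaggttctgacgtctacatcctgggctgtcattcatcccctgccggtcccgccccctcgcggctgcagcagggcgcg
Sgsm1 internal start: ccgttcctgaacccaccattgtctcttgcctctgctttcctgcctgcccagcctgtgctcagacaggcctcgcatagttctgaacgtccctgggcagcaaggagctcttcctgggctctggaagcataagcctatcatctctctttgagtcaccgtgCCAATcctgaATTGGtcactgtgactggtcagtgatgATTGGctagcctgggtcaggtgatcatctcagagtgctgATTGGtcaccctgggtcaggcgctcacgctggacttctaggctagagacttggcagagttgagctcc

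The internal window held 4 CCAAT boxes on either strand. The distal window held 0, as did the windows of Sgsm2, Sgsm3, Rap1b, Rap2a, Rap2b and Rap2c. Of 32851 promoter windows of this length, 37.4% held at least 1 CCAAT box and 3.37% held at least 3. The distal window was 62.7% G and C with 22 CG dinucleotides, and the internal window was 55.7% G and C with 6. The STAT-type pattern TTCNNNGAA, which reads the same on both strands, was searched because IL6 is known to act through STAT3. It occurred in 0 of the 8 windows of the 7 genes that had one, against 8.3% of all windows. Both patterns were searched only in these windows, and the CCAAT box was chosen after the sequence had been read.

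The labels were checked with the transgene first. Il6 had 0, 2 and 0 counts in WT replicates 1, 2 and 3 and 12, 10 and 24 counts in the GFAP-IL6 replicates, and Gfap was between 76.5 and 123 CPM in WT and between 517 and 870 CPM in GFAP-IL6 (TMM-scaled CPM, the counts of a gene per 1000000 counts of its library). Library totals ranged from 7559524 to 16877001 counts, and every GFAP-IL6 library was shallower than every WT library. The tissue label was checked with 12 markers of cortical layers, whose summed level was between 629 and 730 CPM in all libraries, and with 12 neuronal markers, between 11636 and 13311 CPM. Striatal markers stood at 503 CPM in WT replicate 2 and between 259.8 and 333 CPM elsewhere. Choroid plexus markers stood at 619 CPM in WT replicate 3 and between 4.62 and 60.2 CPM elsewhere.

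Sgsm1 was lower in each GFAP-IL6 mouse than in any WT mouse. It had 1698, 1813 and 2026 counts in WT replicates 1, 2 and 3, and 448, 300 and 439 counts in the GFAP-IL6 replicates. On the TMM-scaled CPM scale the WT values were 148, 108 and 127, and the GFAP-IL6 values were 40.2, 39.6 and 49.0. WT replicate 1 was the highest and WT replicate 2 the lowest of the WT libraries, and the GFAP-IL6 libraries lay close together, well below both. The groups thus did not overlap, as was true in the lower direction of 12.7% of all genes tested. The fitted log2 fold change of Sgsm1 was -1.57 ± 0.12 (SE), which leaves 0.337 of the WT level, with a 95% interval from 0.279 to 0.405. Sgsm1 was chosen for this difference in the same libraries. The interval takes no account of that choice and is a description of the fit only.

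Sgsm1 was picked from the genes with an adjusted p under 0.05 and a log2 fold change below -1, of which there were 2, or 0.013% of genes tested. The other was Ermap, with -1.62 on the log2 scale but a WT mean of 1.504 CPM only. The genes next outside the limit were Hpgd, a prostaglandin-degrading enzyme, at -0.95 and the matrix protein gene Abi3bp at -0.93. Among 2286 genes with a mean of at least 100 CPM in WT, Sgsm1 had the second lowest log2 fold change, after the choroid plexus gene Ttr at -3.35. Ttr stood at 550.3 CPM in WT replicate 3, the library rich in choroid plexus markers, and between 1.31 and 47.3 CPM in the others. Left out one at a time, no library moved the fitted value of Sgsm1 beyond the range of -1.68 to -1.45, and it was -1.57 without WT replicate 3.

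**Figure D1:**
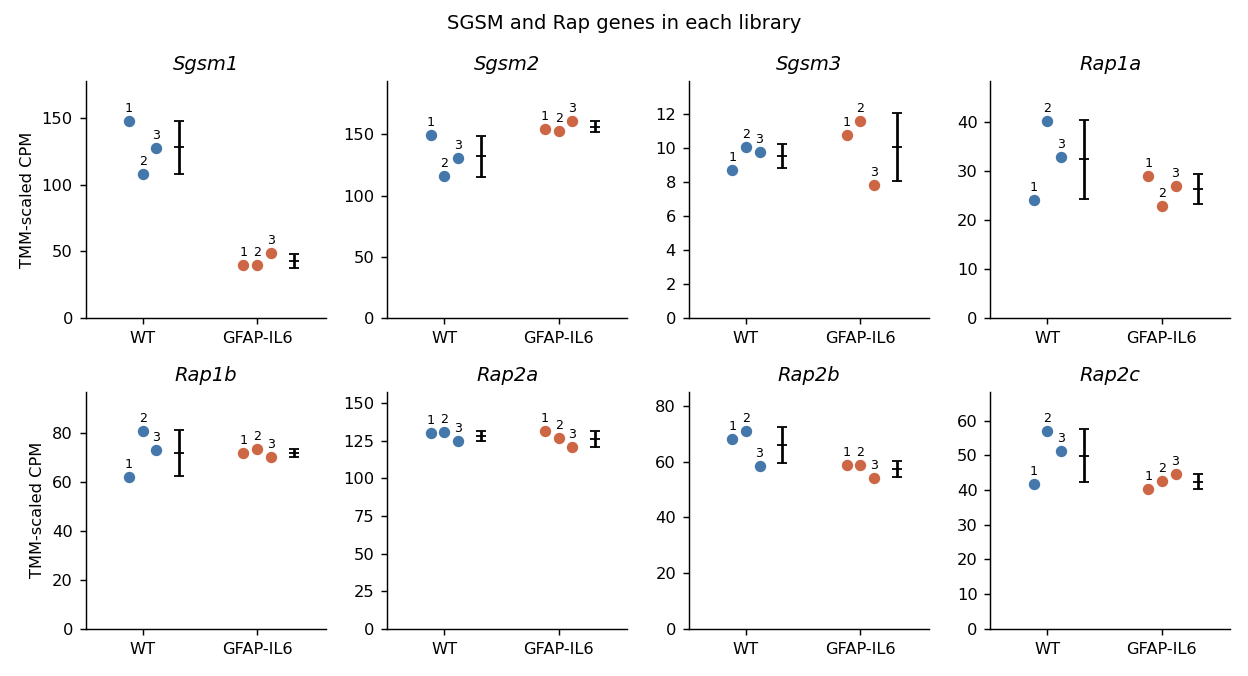
TMM-scaled CPM (vertical axes, each starting at 0) of the 3 SGSM genes and the 5 Rap genes in the 3 WT libraries (blue) and 3 GFAP-IL6 libraries (orange), numbered by replicate, with the group mean and SD in black beside them. Sgsm1 was between 108 and 148 CPM in WT and between 39.6 and 49.0 CPM in GFAP-IL6, whereas the groups overlapped in Sgsm3 and in all Rap genes.

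Sgsm2 (ENSMUSG00000038351.12, minus strand of chromosome 11, 74849261 to 74897060) encodes a RUN and TBC protein known to act on Rab proteins of melanosome traffic. Its values were 149, 116 and 131 CPM in WT replicates 1, 2 and 3 and 155, 153 and 161 CPM in the GFAP-IL6 replicates. Every GFAP-IL6 library was above every WT library, although WT replicate 1 came within a few CPM of the GFAP-IL6 values. The log2 fold change was 0.24 ± 0.10 (SE) and the adjusted p was 0.184 by edgeR's quasi-likelihood test over all genes, so the difference was not past the threshold. The 95% interval of the fold ran from 1.03 to 1.37. The call rested on WT replicate 1: without it the log2 fold change was 0.34 ± 0.09 (SE) and the adjusted p was 0.0391, in a fit that called 6.83% of all genes. Over all 12 alternatives the adjusted p of Sgsm2 ranged from 0.0391 to 0.443.

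Sgsm3 (ENSMUSG00000042303.14, plus strand of chromosome 15, 80977765 to 81012290) was the least abundant member of the family. The WT libraries held 100, 169 and 156 of its counts and the GFAP-IL6 libraries 120, 88 and 70, which corresponds to 8.71, 10.1 and 9.79 CPM and to 10.8, 11.6 and 7.81 CPM. GFAP-IL6 replicate 3 was the lowest library and GFAP-IL6 replicate 2 the highest, so the WT values lay inside the GFAP-IL6 range. The log2 fold change was 0.07 ± 0.16 (SE) and the adjusted p was 0.835 by edgeR, and the interval of the fold ran from 0.824 to 1.34. The second row of this symbol (ENSMUSG00000103565.1) held 0 counts in all 6 libraries, which leaves room for an expected count of up to about 3 in each. Reads that fall in exons of more than 1 gene model are not counted under the default of the counting tool, and whether this applied to Sgsm3 was not tested.

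Levels of the SGSM genes were then compared per unit of length, as TPM (counts divided by the deposited gene length and scaled to the same sum in each library). Sgsm1 went from 60.2 ± 11.1 TPM in WT to 21.2 ± 2.54 TPM in GFAP-IL6 (SD, n = 3 each). Sgsm2 was at 75.3 ± 11.8 TPM in WT and 93.3 ± 2.78 TPM in GFAP-IL6 (SD, n = 3 each), and Sgsm3 was at 8.82 ± 0.447 and 9.79 ± 1.95 TPM. The difference in mean TPM was 39.0 lower for Sgsm1 and 18.1 higher for Sgsm2, or 46.3% of the size of the Sgsm1 difference, while that of Sgsm3 was 2.51%. For Sgsm2 the share was 28.5% in CPM, 27.9% without WT replicate 2 and 72.4% without WT replicate 1. As neither paralog was past the threshold, these shares are descriptions of means and carry the spread of the WT libraries.

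The summed level of the 3 genes was 167, 122 and 143 TPM in WT and 124, 121 and 128 TPM in GFAP-IL6. WT replicate 2 lay within the GFAP-IL6 range, so the sums overlapped, with means of 144 ± 22.5 and 124 ± 3.29 TPM (SD, n = 3 each). On the CPM scale, which does not divide by length, the sums were 306, 234 and 268 in WT and 206, 204 and 218 in GFAP-IL6, without overlap, and the log2 ratio of the means was -0.36 against -0.21 in TPM. The make-up of the sum differed between the groups in every library. Sgsm1 took 42.7%, 40.3% and 41.7% of it in WT and 16.1%, 16.01% and 18.9% in GFAP-IL6. Sgsm2 took between 51.9% and 52.3% in WT and between 74.7% and 75.3% in GFAP-IL6, which made it the most abundant SGSM gene in every library. A lower Sgsm1 raises the share of Sgsm2 even where the level of Sgsm2 is the same. Sgsm1 was chosen for its lower level, so the shift in shares was largely set by that choice and says little about Sgsm2.

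Within each group, Sgsm1 and Sgsm2 were high and low in the same libraries. The ratio of Sgsm1 to Sgsm2 raw counts, which no scaling can move, was 0.99, 0.933 and 0.975 in WT and 0.26, 0.26 and 0.304 in GFAP-IL6. After subtraction of group means, the Pearson coefficient of Sgsm2 with Sgsm1 was 0.91 over the 6 libraries on the log2(CPM + 1) scale. A coefficient at least as high was found for 2.17% of genes tested. The same coefficient was -0.82 for Sgsm3, -0.86 for Rap1b, -0.65 for Rap1a, -0.60 for Rap2c, -0.52 for Rap2a and -0.42 for Rap2b. All these points share the same libraries, depth and scaling, and they are given as a description.

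**Figure D2:**
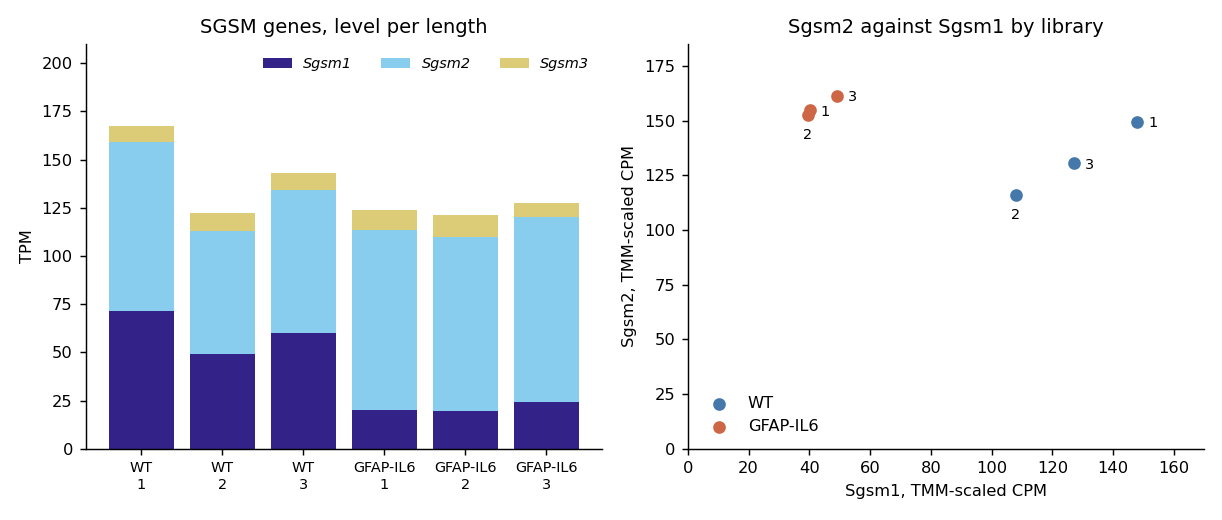
Left: TPM of Sgsm1, Sgsm2 and Sgsm3 stacked for each library (bars start at 0). Right: TMM-scaled CPM of Sgsm2 against Sgsm1, 1 point per library, numbered by replicate, with WT in blue and GFAP-IL6 in orange. Sgsm1 took between 40.3% and 42.7% of the stack in WT and between 16.01% and 18.9% in GFAP-IL6, and inside each group the libraries with more Sgsm1 had more Sgsm2. Sgsm1 was chosen for its lower level, which by itself shrinks its part of the stack.

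The Rap genes were next examined as binding partners. All 5 had a fitted log2 fold change below 0, as did 50.6% of all genes tested, though Rap1b and Rap2a were above 0 when scaled to library totals. None of the 5 was past an adjusted p of 0.05 by edgeR or DESeq2. Including Sgsm2 and Sgsm3, 0 of the 7 genes other than Sgsm1 passed, where 2.86% of all genes did. At an unadjusted p under 0.05 the count was 3 of 7 by edgeR (Sgsm2, Rap2b and Rap2c), against 20.5% of all genes by edgeR (11.1% higher and 9.37% lower). By DESeq2 the count was 1 of 7, for which no share over all genes is given here. Only Sgsm2 had groups that did not overlap, against 26.5% of all genes in either direction and 13.8% in the higher direction.

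Rap1a and Rap1b encode the near-identical Rap1 proteins, which switch on integrins and cell junctions. Only uniquely aligned reads were counted, so any read that could fit both genes is missing from both. Rap1a (ENSMUSG00000068798.8, minus strand of chromosome 3, 105727267 to 105801336) was at 24.1, 40.2 and 32.8 CPM in WT and 28.9, 22.8 and 26.9 CPM in GFAP-IL6. WT replicate 1 lay among the GFAP-IL6 libraries and WT replicate 2 was far above them. The log2 fold change of Rap1a was -0.31 ± 0.16 (SE) and the adjusted p was 0.294 by edgeR. Rap1b (ENSMUSG00000052681.7, minus strand of chromosome 10, 117813871 to 117846035) was at 61.8, 80.6 and 72.8 CPM in WT and 71.6, 73.4 and 70.3 CPM in GFAP-IL6. The GFAP-IL6 values all fell inside the WT range, and the fold had a 95% interval from 0.861 to 1.16 with an adjusted p of 0.991.

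The Rap2 proteins act on the cytoskeleton and on synapses through kinases such as Tnik. Rap2a (ENSMUSG00000051615.11, plus strand of chromosome 14, 120478444 to 120507194) was the steadiest member, at 129.8, 131 and 125 CPM in WT and 131, 127 and 121 CPM in GFAP-IL6. Its groups overlapped almost fully, with a 95% interval of the fold from 0.877 to 1.11 and an adjusted p of 0.897. Rap2c (ENSMUSG00000050029.7, minus strand of chromosome X, 51003912 to 51018018) was at 41.6, 56.9 and 51.2 CPM in WT and 40.2, 42.5 and 44.5 CPM in GFAP-IL6. WT replicate 1 again lay among the GFAP-IL6 libraries. The log2 fold change was -0.24 ± 0.11 (SE) and the adjusted p was 0.242.

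Rap2b (ENSMUSG00000036894.3, plus strand of chromosome 3, 61361638 to 61368430) was at 68.03, 70.9 and 58.5 CPM in WT and 58.9, 58.9 and 54.03 CPM in GFAP-IL6. WT replicate 3 lay just below the higher GFAP-IL6 libraries. The log2 fold change was -0.20 ± 0.09 (SE) and the adjusted p was 0.242. In GENCODE M21, 58.3% of the exon bases of Rap2b lie in exons of genes on the opposite strand, mainly B430305J03Rik, which had a log2 fold change of -0.05 and an adjusted p of 0.878 by edgeR. B430305J03Rik lies between positions 61362250 and 61365951, wholly inside Rap2b. It held 135 to 282 counts per library, so reads there were not all dropped as shared. Strand use in counting is not given in the sources, and how reads were divided between the overlapping genes was not tested. Rap1a and Rap2c, like Sgsm2, passed the threshold when WT replicate 1 was left out, with log2 fold changes of -0.47 and -0.35 and an adjusted p of 0.0411 and 0.0409. The number of the 7 genes past the threshold was then 3, and it was 0 in the other 11 alternatives.

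**Figure D3:**
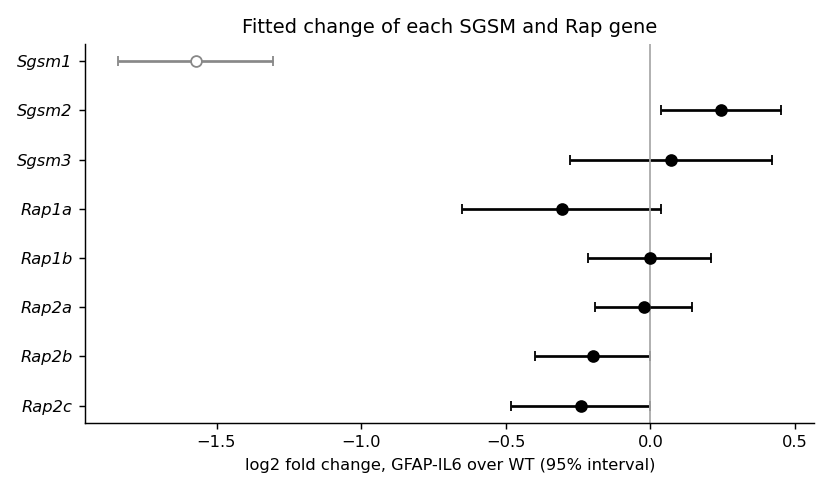
Fitted log2 fold change (GFAP-IL6 over WT, horizontal axis) of each SGSM and Rap gene with its 95% interval from the edgeR fit over all genes. The open grey point is Sgsm1 at -1.57, which was chosen for its difference and was not tested, and its interval takes no account of that choice. The 7 other genes lie between -0.31 and 0.24 and none had an adjusted p under 0.05.

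The order of the levels per length differed between groups mainly in the place of Sgsm1. In WT, Rap1b was the most abundant at 98.2 TPM, followed by Rap2a at 85.3, Sgsm2 at 75.3, Sgsm1 at 60.2, Rap2c at 39.0, Rap1a at 37.1, Rap2b at 26.9 and Sgsm3 at 8.82 TPM. The ranges of neighbours in this order overlapped from Rap1b down to Sgsm1, and for Rap2c and Rap1a, but not between Sgsm1 and Rap2c. In GFAP-IL6, Sgsm1 at 21.2 TPM stood seventh, below Rap2b at 24.6 TPM with overlapping ranges, and above Sgsm3 at 9.79 TPM. The summed level of the 5 Rap genes was 287 ± 20.5 TPM in WT and 283 ± 7.54 TPM in GFAP-IL6 (SD, n = 3 each), with the GFAP-IL6 libraries inside the WT range of 267 to 308 TPM.

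Genes that regulate or bind the Rap and SGSM proteins were taken from 6 lists of 97 genes in total. Of 94 tested, 6 had an adjusted p under 0.05 by edgeR and all 6 were higher in GFAP-IL6, against 2.65% of all genes in that direction and 0.209% in the lower direction. The number was 2 without GFAP-IL6 replicate 3, 3 without GFAP-IL6 replicate 1 and 10 without WT replicate 1, in fits that called 1.2%, 1.95% and 6.83% of all genes.

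Of 11 Rap exchange factors, which load Rap with GTP, 1 rose and 0 fell, with a list median log2 fold change of 0.16 against 0.00 for all genes tested. The gene that rose was Rapgef3, the cAMP-activated exchange factor Epac1, from 30.2 ± 2.90 to 42.3 ± 2.23 CPM (SD, n = 3 each), with an adjusted p of 0.0138 by edgeR. Its call was lost without WT replicate 3 and without any 1 of the GFAP-IL6 replicates, with an adjusted p of up to 0.0812. Of 9 Rap GTPase-activating proteins, which switch Rap off, 1 rose and 0 fell, and the median was 0.19. This was Sipa1, a Rap inactivator best known from blood cells, which rose from 12.7 ± 1.28 to 21.3 ± 3.04 CPM (SD, n = 3 each; adjusted p of 0.00782). Of 15 Rap effectors, 1 rose and 0 fell, with a median of 0.17. Apbb1ip, the adaptor that links Rap1 to integrin activation, rose from 3.97 ± 0.867 to 8.07 ± 0.566 CPM (SD, n = 3 each), a log2 fold change of 1.01 ± 0.19 (SE), at an adjusted p of 0.0114. The call of Sipa1 was lost without GFAP-IL6 replicate 3, and that of Apbb1ip without GFAP-IL6 replicate 1 or 3, with an adjusted p of up to 0.0679 and 0.0716. Log2 fold changes above 0 were found in 10 of 11 exchange factors, 9 of 9 GTPase-activating proteins and 14 of 15 effectors. Over all genes tested, 50.6% were below 0. By edgeR 2, 2 and 7 of these genes had an unadjusted p under 0.05, all higher, against 11.1% of all genes in that direction.

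Of 10 Rab genes known as partners or substrates of SGSM proteins, 9 were tested, 1 rose and 0 fell, and the median was -0.14. Rab32, a Rab of lysosome-related organelles, was at 1.31, 1.79 and 1.57 CPM in WT and 6.19, 3.30 and 6.14 CPM in GFAP-IL6, so that all GFAP-IL6 libraries were higher. Its log2 fold change was 1.74 ± 0.28 (SE) and the adjusted p was 0.00337 by edgeR on 15 to 69 counts per library. Of 37 other TBC domain genes, 36 were tested, 2 rose and 0 fell, with a median of 0.04. Tbc1d4, the insulin-regulated Rab inactivator AS160, rose from 12.4 ± 0.126 to 24.02 ± 3.46 CPM (SD, n = 3 each), with an adjusted p of 0.000712, and Tbc1d2b rose from 18.7 ± 1.37 to 25.2 ± 0.514 CPM with an adjusted p of 0.0378. The call of Tbc1d2b was lost in 7 of 12 alternatives, DESeq2 and thinning among them, and without any 1 of 5 libraries, the exception being WT replicate 1, with an adjusted p of up to 0.183. Rab32 and Tbc1d4 passed in all 12. Log2 fold changes above 0 were found in 3 of the 9 tested Rab genes and 23 of the 36 tested TBC domain genes.

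Of 16 other RUN domain genes, 15 were tested and 0 passed by edgeR, while 3 had an unadjusted p under 0.05, a share close to the 20.5% of all genes. The smallest p values in that list belonged to Fyco1, which couples late endosomes to kinesin, at a log2 fold change of 0.35 (adjusted p of 0.107) and Plekhm1, an adaptor of lysosome fusion, at 0.30 (adjusted p of 0.13). The lowest log2 fold changes among the tested TBC and RUN domain genes were -0.35 and -0.17. Sgsm1 lay below both, but it was chosen for its low value, so this gap was fixed by the choice.

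Markers of other cells moved with the group beside these genes. Of 10 microglial markers, 9 rose and 0 fell past the threshold, against 2.65% of all genes higher and 0.209% lower. The remaining marker, P2ry12, had a log2 fold change of -0.27. The summed level of the 10 was between 439 and 537 CPM in WT and between 940 and 1089 CPM in GFAP-IL6. Of 8 endothelial markers, 5 rose and 0 fell, with sums of 189.7 to 210.1 CPM against 288 to 335 CPM. Of 8 astrocyte markers, 1 rose, Gfap itself, and their sum was 5263 to 6622 CPM in WT and 6209 to 7509 CPM in GFAP-IL6. At an unadjusted p under 0.05 by edgeR, 2 astrocyte markers were higher and 1 was lower. Of 10 oligodendrocyte markers, 0 passed by edgeR and 0 had an unadjusted p under 0.05, and all 10 had a log2 fold change below 0 with a median of -0.27. Their sum was 3542 CPM in WT replicate 1, 6626 and 6012 CPM in the other WT libraries, and 3613 to 5643 CPM in GFAP-IL6. WT replicate 1, low in these markers, was also the WT library lowest in Rap1a and Rap2c and highest in Sgsm2, and the part of oligodendrocytes in these values was not tested. Of 12 neuronal and 12 layer markers, 0 passed the threshold by edgeR, and 4 and 2 had an unadjusted p under 0.05, all 6 lower, against 9.37% of all genes in that direction. None of the markers on these lists had 0 counts in all libraries. The part of these cells in the values of Sgsm1, Rapgef3, Sipa1, Apbb1ip, Rab32 and Tbc1d4 was not tested.

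**Figure D4:**
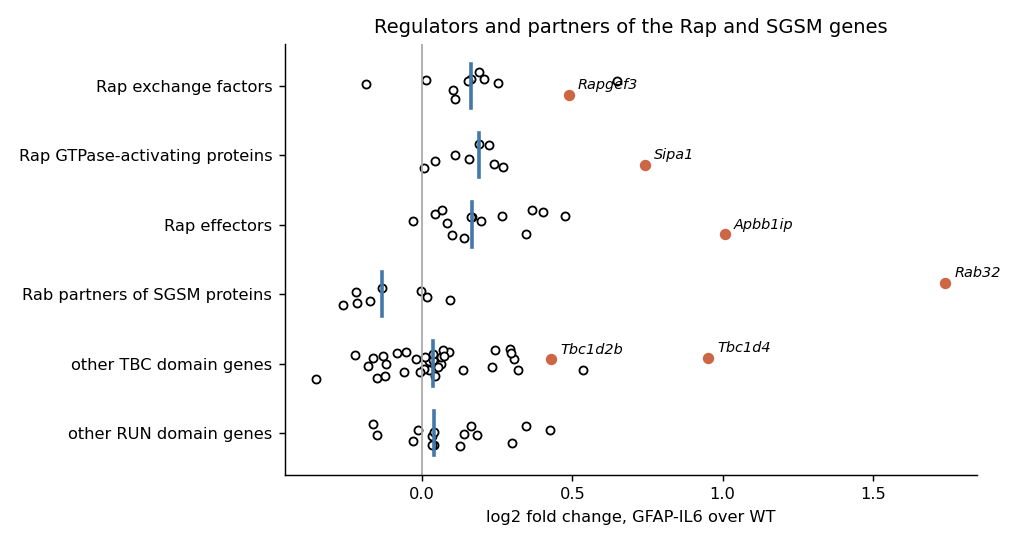
Log2 fold change (GFAP-IL6 over WT) of each tested gene in 6 lists of regulators and partners, 1 row per list, with points spread vertically at random for legibility. Filled orange points had an adjusted p under 0.05 by edgeR and are named, open points did not, and blue lines mark list medians, which lie between -0.14 and 0.19.

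Genes beside Sgsm1 on chromosome 5 were examined next, to see whether they differed between the groups as Sgsm1 did. Within 1000000 bases on either side lay 47 genes of the table, of which 30 were tested. Of these 30, 11 had a log2 fold change below 0 and 19 above 0, with a median of 0.05, while 50.6% of all genes tested were below 0. By edgeR 3 of 30 passed an adjusted p of 0.05, all higher, against 2.65% of all genes in that direction. These were the crystallin gene Crybb1, from 3.02 to 5.61 CPM (adjusted p of 0.0329), Hps4, a subunit of the exchange factor for Rab32, from 19.1 to 27.2 CPM (adjusted p of 0.0211), and Tmem119, from 19.6 to 34.7 CPM (adjusted p of 0.00142). Tmem119 is on the list of microglial markers above and passed in all 12 alternatives. The call of Crybb1 was lost in 5 and that of Hps4 in 4 of them, thinning and the omission of GFAP-IL6 replicate 2 or 3 among them for both genes.

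The nearest tested gene on the lower side was 2900026A02Rik, 21983 bases away, with a log2 fold change of 0.18 ± 0.11 (SE), at an adjusted p of 0.362. On the higher side it was Wscd2, 179546 bases away, at 0.07 ± 0.12 (SE) with an adjusted p of 0.774. The lowest value near Sgsm1 belonged to the myosin gene Myo18b, named here after its values were seen, at -1.14 ± 0.34 (SE) with an adjusted p of 0.0986 and a mean of 2.98 CPM in WT. The count of 3 neighbours was 1 without GFAP-IL6 replicate 2 or without GFAP-IL6 replicate 3.

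**Figure D5:**
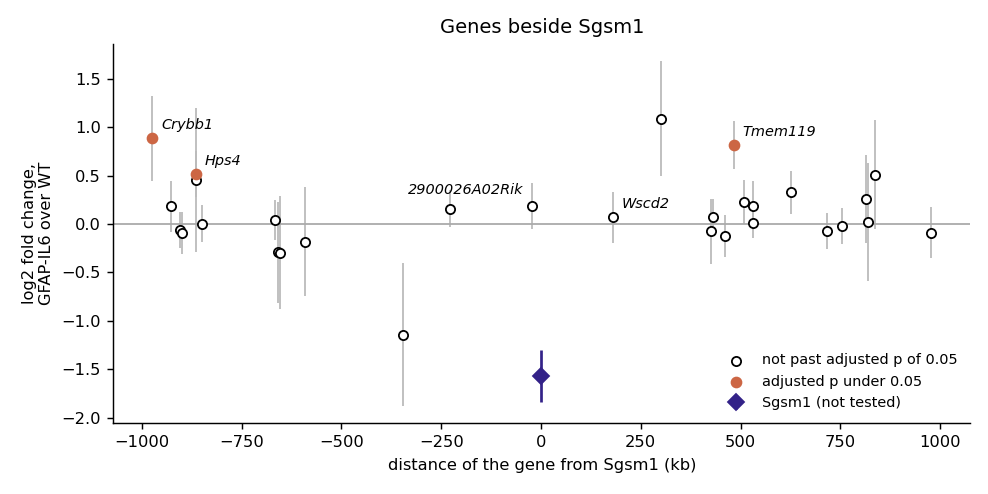
Log2 fold change (GFAP-IL6 over WT, vertical axis, with 95% intervals) of the 30 tested genes within 1000000 bases of Sgsm1 against their distance from it in kb, with lower coordinates to the left. Sgsm1 (diamond, not tested) is at -1.57, its nearest tested neighbours are at 0.18 and 0.07, and the 3 filled orange genes, which had an adjusted p under 0.05, are all above 0. The lowest open point is Myo18b at -1.14.

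The genes whose pattern over the 6 libraries was most like that of Sgsm1 were ranked by the Pearson coefficient of log2(CPM + 1). They were Clcn5, Prkab1, Ermap, Wipi2 and Sdf4, with coefficients of 0.97 to 0.99. After subtraction of group means the coefficients were 0.58, 0.60, 0.83, 0.74 and 0.15, in the same order. Sgsm1 was chosen for its group difference, so the coefficients over all 6 libraries partly restate that difference. Their differences between groups were mostly small. Wipi2 was at 129.9 CPM in WT and 120.2 CPM in GFAP-IL6, and Clcn5 was at 15.1 and 12.2 CPM. Among the most opposite patterns were those of Med22 and Ehd4, with coefficients of -0.997 and -0.989. After subtraction of group means these were -0.96 and -0.85. Of the other members, Rap2b had the highest coefficient with Sgsm1 at 0.65, at place 1932 of 15340 genes, and Sgsm2 the lowest at -0.62. Only 1 of the 5 named genes remained among the top 5 with Spearman's coefficient.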

How the data were processed

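The authors deposited raw counts of each gene in each TruSeq library, with a gene length that was used for TPM. Alignment to mm10 was done by the authors with STAR (version 2.4 in the submitters' processing notes), and featureCounts gave counts of uniquely aligned reads per GENCODE gene. Use of strand and the treatment of reads shared between genes are not given in the sources used here. Groups were taken from sample titles, and positions from GENCODE M21, which held 32593 of the 33000 gene identifiers.

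All genes were fitted with edgeR 4.0.16 in R 4.3.3 (quasi-likelihood F-test, TMM, filterByExpr, group only, Benjamini-Hochberg over 15341 genes), with a threshold of 0.05 on the adjusted p. DESeq2 1.42.0, other scalings, no filter, thinning to the smallest library, a replicate block and omission of each library were alternatives. SEs were derived from the F statistic. Members and gene lists came from general knowledge and were chosen with earlier results of these data known. The text names the 8 members, list genes and neighbours past the threshold (for a list with none, the 2 smallest p), the nearest neighbours, and the 5 genes most like and 3 most unlike Sgsm1, of which 1 is not reported here. Total counts of 7559524 to 16877001 limit precision for genes of few counts such as Sgsm3 and Rab32. Titles number mice within each group, and p values weigh the difference between groups against the spread between these libraries.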

Additional observations from a re-analysis of the deposited data

How the results depend on the processing

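The value of Sgsm1 stayed between -1.68 and -1.45 in all 12 alternatives. The signs of the smallest changes were not fixed. Rap1b was at 0.0204 with library totals, 0.037 after thinning, 0.0079 with the replicate block and between -0.095 and 0.087 with 1 library left out. Rap2a was at 0.00085 with library totals and between -0.051 and 0.013 with 1 library left out, and Sgsm3 between -0.032 and 0.23. With 1 library left out, Sgsm2 ranged from 0.16 to 0.34, Rap1a from -0.47 to -0.12 and Rap2c from -0.35 to -0.14, and the members past the threshold from 0 to 3. List genes past the threshold numbered 10 without the filter, 10 with the replicate block and 2 to 10 with 1 library left out, and neighbours 5, 5 and 1 to 4. The summed SGSM level changed by -0.36 on the log2 scale in CPM, against -0.21 in TPM. The Sgsm2 share of the Sgsm1 difference ranged from 27.9% to 72.4% with 1 library left out, an alternative chosen after seeing the data. The summed Rap level changed by -0.10 on the log2 scale in CPM, against -0.019 in TPM. Of the 5 genes most like Sgsm1, 3 remained with library totals and 1 with Spearman's coefficient. The cause of these shifts was not tested.

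Over all genes, 439 passed the threshold. The number was 560 with DESeq2, 1154 without the filter, 1061 without WT replicate 1, 304 without GFAP-IL6 replicate 1, 282 without GFAP-IL6 replicate 2 and 187 without GFAP-IL6 replicate 3. Deviations from group means of same-numbered libraries correlated at 0.12, 0.019 and 0.05 across genes. For WT and GFAP-IL6 libraries of different numbers the correlations ran from -0.099 to 0.051. These ranges overlap, so they do not decide whether replicate numbers pair the mice. The replicate block gave 750 genes past the threshold, of which 438 were shared, and 0 of the 7 members other than Sgsm1. WT replicates 1 and 3 correlated best with their own number, while WT replicate 2 did not. Depth limits genes of few counts such as Rab32, with 15 to 69 counts per library.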
